A study of Mus musculus with 4 samples.

Results

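The Ikaros family of zinc finger transcription factors was followed in CD69+DP thymocytes, the CD4+CD8+ cells that have received a TCR signal and brought CD69 to their surface. Its members were taken by symbol as *Ikzf1* (Ikaros), *Ikzf2* (Helios), *Ikzf3* (Aiolos), *Ikzf4* (Eos) and *Ikzf5* (Pegasus), which are 5 of the 24421 genes listed, and each reached the level set for testing, which was an FPKM of 1 or more in 2 or more samples. RNA came from 4 samples of sorted thymocytes of 6-week-old mice on a C57BL/6 background, each sorted from different mice. Whether a sample held cells of 1 mouse or of a pair is not clear from the study's methods, so the SDs below are spreads between samples, not between single mice. The 2 control samples were Foxa1fl/flFoxa2fl/fl CD4Cre- and the 2 Foxa1/2cKO samples were Foxa1fl/flFoxa2fl/fl CD4Cre+, so both groups carried the floxed alleles and they differed in the CD4Cre transgene, which is driven from *Cd4* control sequences and acts from the DP stage and in all cells that descend from it. No control with the transgene and unfloxed alleles was analysed here. The comparison asks whether loss of *Foxa1* and *Foxa2* changes the amount of Ikaros family RNA in cells that are undergoing positive selection.

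Ikaros proteins bind DNA through a group of zinc fingers near the N-terminus and bind each other, as homodimers or heterodimers, through a pair of fingers at the C-terminus. They both repress and activate genes, in part by bringing the NuRD complex, which holds a nucleosome remodeller and histone deacetylases, to DNA. In the thymus Ikaros is known for restraining Notch targets and setting the threshold of the TCR signal, Aiolos is expressed from the DP stage onwards and is also prominent in B cells, and Helios and Eos are known from regulatory T cells and from thymocytes that receive strong TCR signals. Pegasus is the most distant member in sequence and the least studied in T cells.

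The zinc fingers are shown because they define the family and set the members apart. The C2H2 zinc finger pattern was searched in the longest complete coding sequence that GENCODE vM21 annotates for each gene on GRCm38, the assembly called mm10. It matched 6 times in *Ikzf1* and *Ikzf2* and 5 times in *Ikzf3*, *Ikzf4* and *Ikzf5*. Finger 2 is one of the N-terminal fingers that make the main contacts with DNA in Ikaros. Its coding sequence is at chr11:11754024-11754086 (plus strand, exon 6) in *Ikzf1*, chr1:69570581-69570643 (minus strand, exon 5) in *Ikzf2*, chr11:98488940-98489002 (minus strand, exon 5) in *Ikzf3*, chr10:128640229-128640291 (minus strand, exon 5) in *Ikzf4* and chr7:131392501-131392563 (minus strand, exon 4) in *Ikzf5*. The lines below give it 5′ to 3′ on the coding strand, with the codons of the zinc-binding cysteines and histidines in capitals.
Ikzf1 finger 2: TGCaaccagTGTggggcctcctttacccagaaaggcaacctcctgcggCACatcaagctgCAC
Ikzf2 finger 2: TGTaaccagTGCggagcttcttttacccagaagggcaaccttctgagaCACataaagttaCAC
Ikzf3 finger 2: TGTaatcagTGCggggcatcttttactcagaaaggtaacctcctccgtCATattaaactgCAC
Ikzf4 finger 2: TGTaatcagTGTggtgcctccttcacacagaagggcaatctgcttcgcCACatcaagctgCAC
Ikzf5 finger 2: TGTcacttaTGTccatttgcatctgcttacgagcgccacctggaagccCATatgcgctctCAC

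Over the 63 bases of finger 2, *Ikzf1* was 81.0% identical to *Ikzf2*, 81.0% to *Ikzf3* and 84.1% to *Ikzf4*, but 41.3% to *Ikzf5*. Fingers were numbered by their order of match, so the second match of *Ikzf5* need not be the counterpart of finger 2 in *Ikzf1*. The last matched finger, which belongs to the C-terminal pair through which the proteins dimerise, is shown for the 4 genes in which it had the same length of 69 bases. It is at chr11:11769495-11769563 (plus strand) in *Ikzf1*, chr1:69538780-69538848 (minus strand) in *Ikzf2*, chr11:98467004-98467072 (minus strand) in *Ikzf3* and chr7:131391649-131391717 (minus strand) in *Ikzf5*, in the last coding exon in each case. The capitals again mark the zinc-binding codons.
Ikzf1 last finger: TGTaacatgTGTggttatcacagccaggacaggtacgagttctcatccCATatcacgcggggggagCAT
Ikzf2 last finger: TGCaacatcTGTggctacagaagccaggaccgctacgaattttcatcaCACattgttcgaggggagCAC
Ikzf3 last finger: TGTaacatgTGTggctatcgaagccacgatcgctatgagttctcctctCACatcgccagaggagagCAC
Ikzf5 last finger: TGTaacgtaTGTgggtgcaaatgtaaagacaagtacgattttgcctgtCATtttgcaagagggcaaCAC

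The last finger of *Ikzf1* was 72.5% identical to that of *Ikzf2*, and that of *Ikzf3* was 60.9% identical to that of *Ikzf5*. Identity was computed only between matches of the same number. The other pairs of last fingers, such as *Ikzf1* with *Ikzf3*, were therefore not compared, and these values do not show which members are closest. *Ikzf4* had 1 match near the C-terminus, of 63 bases, in the coding sequence used. Its other annotated transcripts were not searched for fingers. In *Ikzf1* the N-terminal fingers are spread over exons 5, 6 and 7, with fingers 2 and 3 together in exon 6. Gene-level FPKM (fragments per kilobase, relative to the depth of a sample) do not separate isoforms, and Ikaros transcripts that skip these exons were not told apart from full-length ones.

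**Figure D1:**
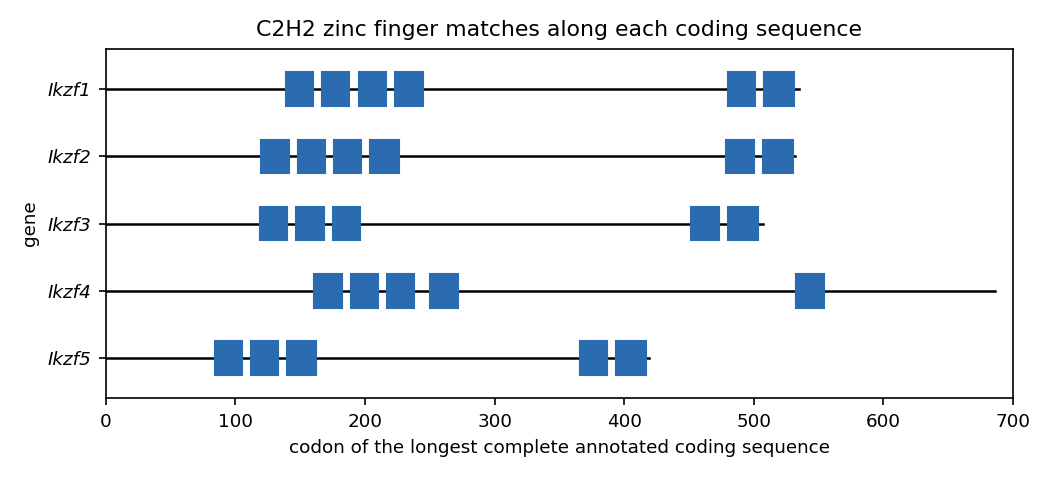
Position of each C2H2 zinc finger match (blue blocks) along the longest complete annotated coding sequence of each gene (black line, in codons). The matches form an N-terminal group in all 5 genes and a pair near the C-terminus in every gene but *Ikzf4*, where 1 match was found, and *Ikzf5* has the shortest coding sequence, of 419 codons, against 686 in *Ikzf4*.

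The sorted population carried its own markers in every sample. *Cd4* stood at an FPKM of 342 to 446, *Cd8a* at 475 to 666, *Cd8b1* at 592 to 974 and *Cd69* at 103 to 121. *Cd3e* was lowest in Foxa1/2cKO 1, at 333, and stood at 396 elsewhere. Of these 5 genes, 4 had a fold change above 0 and *Cd3e* had one below 0 (log2 fold change -0.13). Their summed FPKM reached 2602 in Foxa1/2cKO 2, against 1928 to 1960 elsewhere. The sign of their median log2 fold change turned on 1 library, with 0.17 for all samples, -0.01 without Foxa1/2cKO 2 and 0.36 without Foxa1/2cKO 1. *Foxa1* and *Foxa2* were listed at 0 in all 4 samples, so their RNA does not check the genotypes. From 10396707 to 14482496 reads were recovered on listed genes per sample. In Foxa1/2cKO 2 they (11262273) exceeded the total by which its FPKM were divided (11093927, inferred from the FPKM steps), and in every other sample they were below it. Relative to recovered reads, FPKM of Foxa1/2cKO 2 are thus somewhat higher than those of the others. Across all genes tested, the median log2 difference of Foxa1/2cKO 2 from Foxa1/2cKO 1 was 0.03, so the typical gene was little raised. Scaling to all recovered reads lowered the log2 fold changes to 0.12 for *Ikzf1*, 0.38 for *Ikzf2* and 0.18 for *Ikzf3*. Foxa1/2cKO 2 stood apart from the other samples on the first principal component, which held 65.2% of the variance (28.5, against -7.42 to -11.0), and fold changes of the members and medians of the gene lists are therefore also given without it. Among 10776 genes tested, 1 had an adjusted p under 0.05 (0.00928%, limma with Benjamini-Hochberg adjustment), the non-coding RNA gene *2610035D17Rik*, which was lower and is named here because it was the only one, and 490 (4.55%) had an unadjusted p under 0.05. The median log2 fold change over all genes tested was 0.01.

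Ikaros family RNA was abundant in CD69+DP cells, and its levels had the same order in every sample. On the FPKM scale, which is per length of gene, *Ikzf1* was highest, followed by *Ikzf3*, *Ikzf2*, *Ikzf5* and *Ikzf4*, in each of the 4 samples. No neighbours in this order overlapped: the lowest *Ikzf1* value was 222 against a highest *Ikzf3* value of 125, the lowest *Ikzf3* value was 95.5 against a highest *Ikzf2* value of 38.2, the lowest *Ikzf2* value was 24.2 against a highest *Ikzf5* value of 10.6, and the lowest *Ikzf5* value was 10.3 against a highest *Ikzf4* value of 6.11. By mean level, *Ikzf1* stood above 98.5% of the genes tested, *Ikzf3* above 94.9%, *Ikzf2* above 71.8%, *Ikzf5* above 39.8% and *Ikzf4* above 21.1%. Of 14 other transcription factors of DP thymocytes, 5 were above *Ikzf1* in both controls: *Tcf7* (TCF-1, 1706 and 1645), the chromatin organiser *Satb1* (548 and 567), *Ets1*, *Lef1* and *Myb*. The last 3 were chosen after their values were seen.

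**Figure D2:**
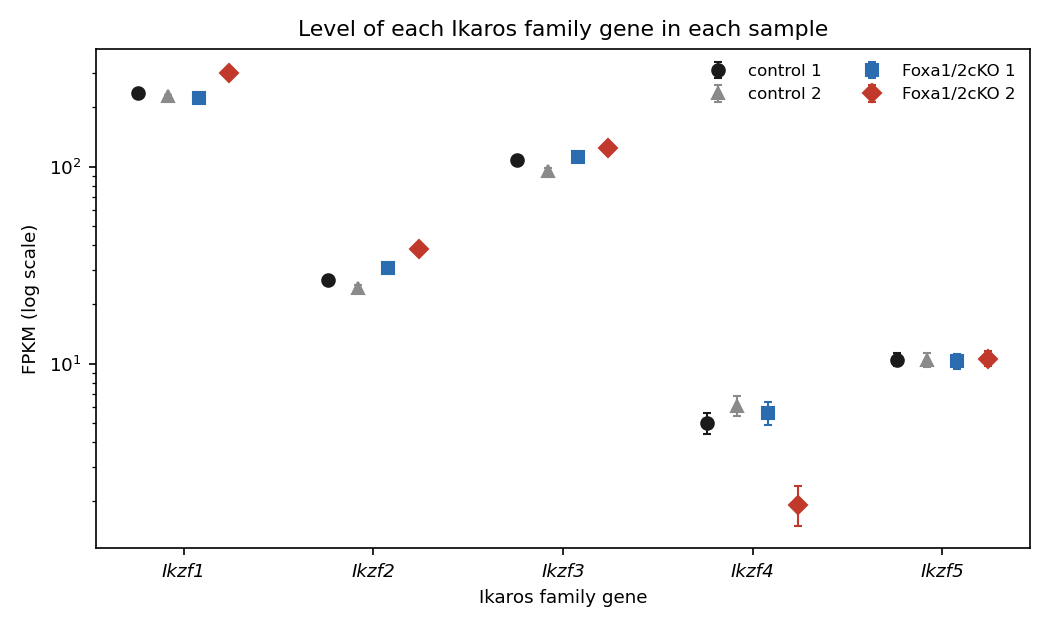
FPKM on a log scale for each Ikaros family gene in each sample, with bars for the 95% exact Poisson interval of the recovered reads (counting error only). *Ikzf1* lies at 222 to 300 and *Ikzf4* at 1.91 to 6.11, and the Foxa1/2cKO 2 point is above the others in *Ikzf1*, *Ikzf2* and *Ikzf3* and below them in *Ikzf4*.

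The FPKM of the family added up to 386 and 364 in the controls, while Foxa1/2cKO 1 reached 381 and Foxa1/2cKO 2 reached 475. *Ikzf1*, *Ikzf3* and *Ikzf2* carried nearly all of it. *Ikzf1* made up 58.4% to 63.1% of the sum, *Ikzf3* 26.2% to 29.4% and *Ikzf2* 6.67% to 8.04%. *Ikzf5* made up 2.23% to 2.87%, and *Ikzf4* 1.29% to 1.68% in 3 samples and 0.403% in Foxa1/2cKO 2. Foxa1/2cKO 1 lay between the controls in the summed level, and Foxa1/2cKO 2 lay above them.

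No member passed an adjusted p of 0.05 between Foxa1/2cKO and control (limma on log2(FPKM + 1), adjusted p from 0.863 to 0.996). The paper, with DESeq2 on counts and re-estimated p-values, reported *Ikzf2* as higher in Foxa1/2cKO, which the fit used here did not call. It also reported differential exon usage in *Ikzf1*, *Ikzf2* and *Ikzf3*, which gene-level FPKM do not resolve. At an unadjusted p of 0.05, 1 of the 5 passed, *Ikzf2*, which was higher, against 258 genes of all tested that were higher (2.39%) and 232 that were lower (2.15%). In 2 members both Foxa1/2cKO values exceeded those of both controls, namely *Ikzf2* and *Ikzf3*, against 18.9% of all genes tested, and in 0 members both were lower, against 17.8%. The median log2 fold change of the members was 0.15, with 0.02 without Foxa1/2cKO 2 and 0.29 without Foxa1/2cKO 1. Of the 5 fold changes, 3 were above 0 and 2 below.

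*Ikzf2* encodes Helios, which is raised in thymocytes that receive strong TCR signals and in regulatory T cells. The FPKM of control 1 and control 2 were 26.6 and 24.2, while Foxa1/2cKO 1 had 30.6 and Foxa1/2cKO 2 had 38.2, with 3100 to 3990 reads. Both Foxa1/2cKO samples were above both controls, and Foxa1/2cKO 1 was nearer to the controls than Foxa1/2cKO 2 was. The control mean was 25.4 ± 1.70 (SD, n = 2) and the Foxa1/2cKO mean 34.4 ± 5.37 (SD, n = 2). The log2 fold change was 0.41 (standard error 0.14, 95% interval 0.06 to 0.77, adjusted p = 0.863 by limma), with an unadjusted p of 0.0315 by limma. It was 0.26 without Foxa1/2cKO 2 and 0.57 without Foxa1/2cKO 1. With 1 Foxa1/2cKO sample left out, only the spread between the controls enters the fit, so only fold changes are given for such fits.

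*Ikzf2* was also set against *Ikzf1* within each sample, because the proteins dimerise with each other. Helios RNA was by FPKM 11.3% and 10.7% of Ikaros RNA in the controls, against 13.8% and 12.7% after deletion. The Foxa1/2cKO values did not overlap the controls, and the difference in log2 ratio was 0.27, with 0.22 to 0.33 on leaving out each sample. An exact permutation test of 2 samples against 2 gave a two-sided p of 0.33, the smallest it can give.

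*Ikzf3* encodes Aiolos, the closest partner of Ikaros in lymphocytes. The FPKM of control 1 and control 2 were 108 and 95.5, while Foxa1/2cKO 1 had 112 and Foxa1/2cKO 2 had 125. Both Foxa1/2cKO samples were above the controls, but the gap from control 1 to Foxa1/2cKO 1 was smaller than that between the controls. The control and Foxa1/2cKO means were 102 ± 8.55 (SD, n = 2) and 118 ± 9.00 (SD, n = 2), and the log2 fold change was 0.22 (standard error 0.11, 95% interval -0.07 to 0.50, adjusted p = 0.863 by limma). It was 0.14 without Foxa1/2cKO 2 and 0.29 without Foxa1/2cKO 1. Set against *Ikzf1*, Aiolos RNA stood at 45.5% and 42.0% in the controls, against 50.3% and 41.5% in the Foxa1/2cKO samples, which overlapped (difference in log2 ratio 0.06, exact permutation p = 1, two-sided). The sign of this difference turned on 1 sample, with -0.07 to 0.20 on leaving out each.

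*Ikzf1* encodes Ikaros. The FPKM of control 1 and control 2 were 237 and 227, while Foxa1/2cKO 1 had 222 and Foxa1/2cKO 2 had 300.1. The Foxa1/2cKO samples lay on either side of the controls. The control and Foxa1/2cKO means were 232 ± 6.58 (SD, n = 2) and 261 ± 55.1 (SD, n = 2), and the log2 fold change was 0.15 (standard error 0.16, 95% interval -0.27 to 0.58, adjusted p = 0.872 by limma). It was -0.06 without Foxa1/2cKO 2 and 0.37 without Foxa1/2cKO 1, so its direction rested on 1 library.

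*Ikzf4* encodes Eos, a partner of FOXP3 in regulatory T cells. The FPKM of control 1 and control 2 were 4.98 and 6.11, while Foxa1/2cKO 1 had 5.61 and Foxa1/2cKO 2 had 1.91, from 267, 297, 217 and 76 reads. Foxa1/2cKO 1 was between the controls and Foxa1/2cKO 2 was below every other sample. The 95% Poisson interval in Foxa1/2cKO 2 was 1.51 to 2.40, and the lowest bound in the other 3 samples was 4.40, so the gap was beyond counting error. The log2 fold change was -0.57 (standard error 0.41, 95% interval -1.65 to 0.51, adjusted p = 0.863 by limma), with 0.02 without Foxa1/2cKO 2 and -1.16 without Foxa1/2cKO 1. Between the Foxa1/2cKO samples, *Ikzf4* differed by -1.18 on the log2 scale, and 2.17% of the genes tested had a lower value there.

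*Ikzf5* encodes Pegasus. Each control had an FPKM of 10.5, Foxa1/2cKO 1 had 10.3 and Foxa1/2cKO 2 had 10.6, with 487 to 688 reads. All 4 values lay within one another's 95% Poisson intervals. The log2 fold change was -0.003 (standard error 0.09, 95% interval -0.25 to 0.24, adjusted p = 0.996 by limma). *Ikzf5* is the member whose reads are hardest to assign. Of the 50-base stretches of its longest coding transcript, 79.6% lay also in annotated transcripts of *Pstk* on the opposite strand and 17.1% in the processed pseudogene *Gm10356*. The strand setting of the gene counts is not given in the sources used here, while the exon counts of the study were made without regard to strand. The values of *Ikzf5* are uncertain for these reasons. *Ikzf1*, *Ikzf3* and *Ikzf4* shared 0% of such stretches with any other annotated gene, *Ikzf2* shared 3.99% with the antisense gene *Gm29114*, and no member shared one with another member. Only the longest coding transcript of each member was searched. For *Ikzf2* it has 2483 bases, against a gene length of 9421 bases recovered from its FPKM, and for *Ikzf4* 2213 against 3580. Sharing in the rest of these genes was not examined.

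**Figure D3:**
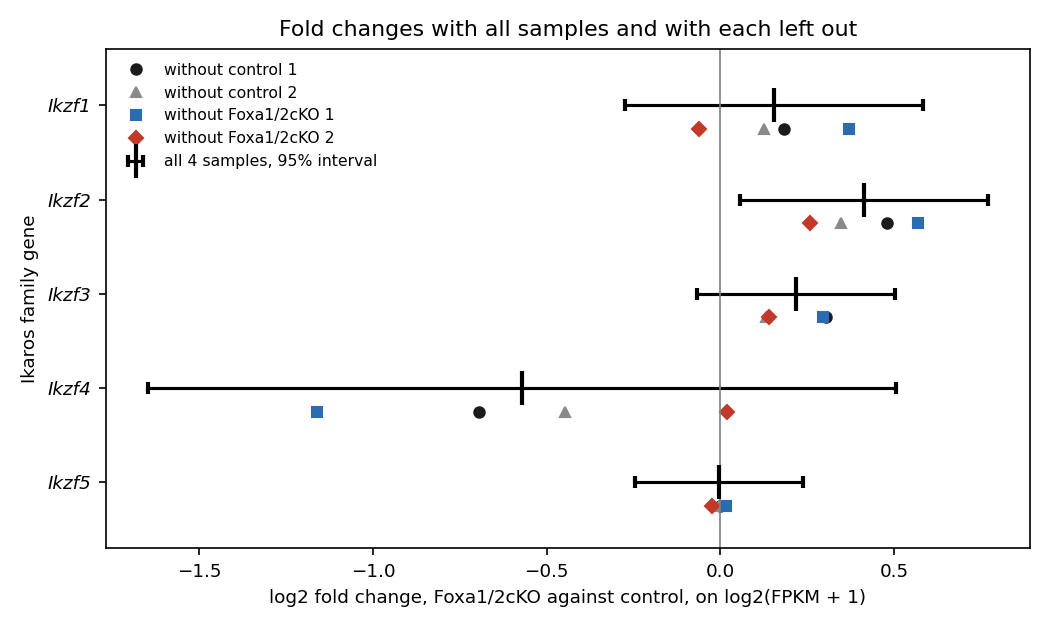
Log2 fold change of each Ikaros family gene on log2(FPKM + 1), Foxa1/2cKO against control, with all 4 samples (black ticks, bars for the 95% limma interval) and with each sample left out (symbols beneath). The symbols of *Ikzf2* and *Ikzf3* all lie above 0, those of *Ikzf1* and *Ikzf4* lie on both sides of 0 depending on whether Foxa1/2cKO 2 is included, and those of *Ikzf5* run from -0.02 to 0.02.

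None of the cofactors through which Ikaros proteins act had an adjusted p under 0.05. Where 4 FPKM values follow a gene from here on, they are those of control 1, control 2, Foxa1/2cKO 1 and Foxa1/2cKO 2. Of 14 NuRD subunits, 6 were higher and 8 lower in Foxa1/2cKO, with a median log2 fold change of -0.06 (-0.05 without Foxa1/2cKO 2 and -0.02 without Foxa1/2cKO 1), and 0 passed an adjusted p of 0.05 by limma. The most abundant were *Chd4*, the remodelling ATPase (189, 177, 178 and 210), and *Mta2*, a scaffold subunit (149, 144, 141 and 184). At an unadjusted p of 0.05 by limma, 0 were higher (against 2.39% of all genes tested) and 1 was lower (against 2.15%), the small subunit *Cdk2ap1*, at 9.62, 11.2, 6.67 and 7.79 (log2 fold change -0.47, standard error 0.13, unadjusted p = 0.0177, adjusted p = 0.863). Its log2 fold change was -0.57 without Foxa1/2cKO 2. Both Foxa1/2cKO samples were below both controls in 6 NuRD genes, *Cdk2ap1* among them, against 17.8% of all genes tested, and above both in 2, against 18.9%. Of 10 other corepressor and remodelling genes, 9 were tested and 0 passed an unadjusted p of 0.05 by limma (2 higher, 7 lower, median log2 fold change -0.08, -0.03 without Foxa1/2cKO 2 and -0.14 without Foxa1/2cKO 1). Their most abundant members were *Ctbp1*, a corepressor (138, 138, 141 and 156), and *Smarca4*, the ATPase BRG1 (109, 113, 103 and 101).

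Among 11 genes for kinase, phosphatase and ubiquitin ligase subunits that act on Ikaros proteins, 1 was higher (against 2.39% of all genes tested) and 0 lower (against 2.15%) at an unadjusted p of 0.05 by limma. Their median log2 fold change was 0.01, with 0.05 without Foxa1/2cKO 2 and 0.04 without Foxa1/2cKO 1. The higher gene was *Crbn*, which encodes cereblon, the substrate receptor that binds human Ikaros and Aiolos at finger 2 in the presence of thalidomide analogues. The controls had an FPKM of 20.6 and 19.9 and the Foxa1/2cKO samples 24.3 and 27.8, without overlap (log2 fold change 0.35, standard error 0.10, unadjusted p = 0.0228, adjusted p = 0.863). It was 0.25 without Foxa1/2cKO 2 and 0.25 to 0.44 on leaving out each sample. The most abundant of the list were *Ppp1ca*, a catalytic subunit of protein phosphatase 1 (379, 384, 356 and 398), and *Ddb1*, the adaptor that joins cereblon to its ligase (123, 121, 122 and 125).

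Genes whose control has been linked to Ikaros proteins had as many higher as lower fold changes. Of 18 such genes 16 were tested, with 8 higher and 8 lower and a median log2 fold change of -0.09 (-0.04 without Foxa1/2cKO 2 and -0.15 without Foxa1/2cKO 1), while *Igll1* was listed at 0 in all samples. At an unadjusted p of 0.05 by limma 0 were higher (against 2.39% of all genes tested) and 2 were lower (against 2.15%), and 0 had an adjusted p under 0.05. *Ptcra*, the pre-TCR alpha chain and a Notch target, had an FPKM of 11.2 and 11.9 in the controls, against 7.44 for Foxa1/2cKO 1 and 3.23 for Foxa1/2cKO 2 (log2 fold change -1.08, standard error 0.34, unadjusted p = 0.0273, adjusted p = 0.863). *Notch3*, a Notch receptor that is itself a Notch target, was at 9.34 and 9.76 in the controls, against 7.02 for Foxa1/2cKO 1 and 3.60 for Foxa1/2cKO 2 (log2 fold change -0.80, standard error 0.28, unadjusted p = 0.0392, adjusted p = 0.863). Both Foxa1/2cKO samples lay below both controls in each, and Foxa1/2cKO 2 lay lowest. Without Foxa1/2cKO 2 the log2 fold changes were -0.58 for *Ptcra* and -0.40 for *Notch3*.

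Further Notch targets of that list, chosen after their values were seen and not a full set, did not pass an unadjusted p of 0.05. *Dtx1* was at 16.5, 15.8, 13.0 and 4.83 (unadjusted p = 0.0831 by limma), and *Nrarp* at 3.35, 2.37, 2.41 and 0.945. *Hes1* was near the floor, at 1.24, 1.07, 1.02 and 0.124, from 27, 21, 16 and 2 reads. In *Nrarp* the value of Foxa1/2cKO 1 lay between the controls. The most abundant linked genes were the coreceptor genes *Cd8b1* (592, 613, 668 and 974, log2 fold change 0.42, unadjusted p = 0.0918 by limma) and *Cd8a* (487, 495, 475 and 666), and for *Cd8a* the groups overlapped.

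A further list held 10 genes of agonist selection and regulatory T cells, which are high where Helios or Eos is high. Of these, 3 were higher and 7 lower, and at an unadjusted p of 0.05 by limma 0 were higher (against 2.39% of all genes tested) and 1 was lower (against 2.15%). The median log2 fold change was -0.22 with all samples, -0.05 without Foxa1/2cKO 2 and -0.44 without Foxa1/2cKO 1. The lower gene was *Foxp3*, the defining factor of regulatory T cells, at 2.79 in each control, against 1.86 for Foxa1/2cKO 1 and 1.26 for Foxa1/2cKO 2 (log2 fold change -0.58, standard error 0.18, unadjusted p = 0.0273, adjusted p = 0.863, and -0.41 without Foxa1/2cKO 2). The highest in level were *Nr4a1*, an immediate early gene of the TCR (206, 183, 183 and 217), and *Nfkbid*, which encodes an IκB protein needed for *Foxp3* expression (65.2, 61.6, 54.8 and 58.6). In bulk RNA, fewer cells of a type and less RNA per cell cannot be told apart. The 14 other transcription factors of DP thymocytes had 7 higher and 7 lower fold changes and 0 at an unadjusted p of 0.05 by limma. The sign of their median turned on 1 library, with 0.02 for all samples, -0.12 without Foxa1/2cKO 2 and 0.21 without Foxa1/2cKO 1.

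The low *Ikzf4* value of Foxa1/2cKO 2 stood beside low values of maturation genes in the same library. The 5 markers of mature SP thymocytes used here summed to an FPKM of 215, 241, 242 and 111 in that order, with none at 0 in all samples. Their median log2 fold change was -0.53 with all samples, 0.10 without Foxa1/2cKO 2 and -1.13 without Foxa1/2cKO 1. Chosen after its values were seen, the IL-7 receptor gene *Il7r* was at 33.7, 44.1, 41.5 and 13.4, and *Ccr7*, a chemokine receptor gene of cells moving to the medulla, was at 82.5, 91.7, 86.9 and 39.1. *Itgb7*, an integrin gene, was at 49.3, 48.7, 57.1 and 34.9. At an unadjusted p of 0.05 by limma 0 of the 5 passed. The part of such a difference in maturation genes in the *Ikzf4* value was not tested.

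**Figure D4:**
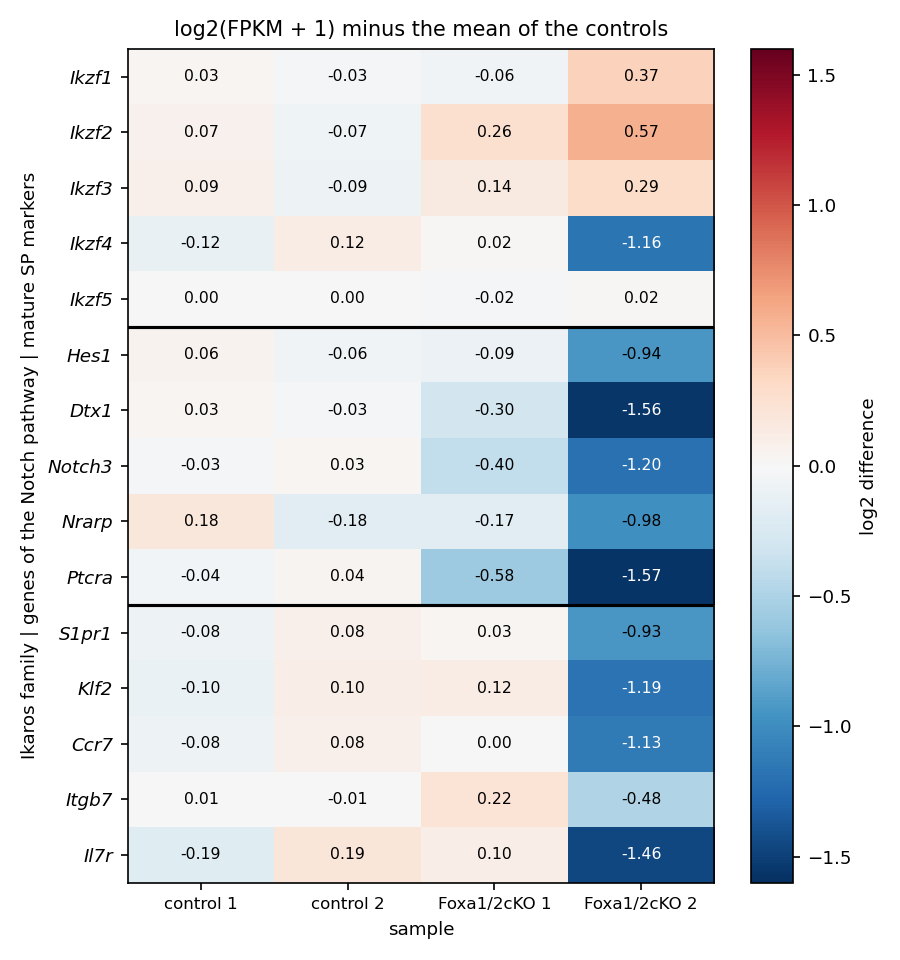
Difference of log2(FPKM + 1) from the mean of the controls, in each sample, for the Ikaros family, 5 genes of the Notch pathway and 5 markers of mature SP thymocytes (red above, blue below the controls). In Foxa1/2cKO 2 *Ikzf4* is at -1.16, beside *Dtx1* at -1.56, *Ptcra* at -1.57 and *Il7r* at -1.46, while *Ikzf1* is at 0.37, *Ikzf2* at 0.57 and *Ikzf3* at 0.29. The Notch genes were chosen after their values were seen.

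Markers of other cells that a sort can carry were low beside the T cell genes. The 6 B cell markers summed to 76.2, 50.6, 104 and 54.4, so that the groups overlapped, with none at 0 in all samples, *Cd79a* at 11.4 to 27.2, *Cd79b* at 19.1 to 26.4 and *Ebf1* at 0.290 to 0.591. All 5 B cell markers tested had a fold change above 0, and 0 passed an unadjusted p of 0.05 by limma. Their median log2 fold change was 0.31, with 0.74 without Foxa1/2cKO 2 and -0.12 without Foxa1/2cKO 1. The part of B cells, which also express *Ikzf1* and *Ikzf3*, in the family's levels was not tested. The 6 markers of preselection DP cells had a median log2 fold change of 0.07, which was -0.07 without Foxa1/2cKO 2, so that its sign turned on 1 library. With all samples 5 of them were higher and *Ptcra* was lower, with *Rag1* at 363, 375, 449 and 368 and *Dntt* at 371, 415, 390 and 420. The 6 myeloid markers summed to 10.1 to 21.3, the 5 natural killer cell markers to 31.5 to 49.3 and the 5 thymic epithelial markers to 3.18 to 4.18. The groups overlapped in the myeloid and natural killer cell sums, and in the thymic epithelial sum both Foxa1/2cKO samples (4.18 and 3.69) were above the controls (3.26 and 3.18). The median log2 fold change of the 4 myeloid markers tested was -0.07 (0.25 without Foxa1/2cKO 2, -0.46 without Foxa1/2cKO 1). For the 3 natural killer cell markers tested it was 0.05 (0.23 without Foxa1/2cKO 2, -0.13 without Foxa1/2cKO 1). Only *Epcam* was tested among the thymic epithelial markers (0.27, with 0.35 without Foxa1/2cKO 2 and 0.19 without Foxa1/2cKO 1). The highest single markers were *Lyz2* (7.08 to 15.2), *Nkg7* (at most 23.7), *Gzma* (17.9 to 23.2) and *Epcam* (2.76 to 3.86), and the thymic epithelial factor *Foxn1* did not exceed 0.055. Of the 5 erythroid markers used here, all 4 globin genes were listed at 0 in every sample, and *Alas2*, an enzyme of haem synthesis, was at 0.608, 1.08, 2.62 and 0.911. *Alas2* was highest in Foxa1/2cKO 1, and its groups overlapped (log2 fold change 0.52, adjusted p = 0.863 by limma). Its log2 fold change was 0.99 without Foxa1/2cKO 2 and 0.06 without Foxa1/2cKO 1.

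The nearest annotated protein-coding gene on each side of every member was also read. *Fignl1*, a repair gene that lies 14.5 kb beyond *Ikzf1*, was at 14.1, 15.0, 14.5 and 4.18, so that it was low in the sample where *Ikzf1* was high, and *4930512M02Rik* on the other side was listed at 0. *Erbb4* beside *Ikzf2* was listed at 0 and *Spag16* on the other side had at most 15 reads. *Grb7* and *Zpbp2*, on either side of *Ikzf3*, did not exceed 1.32. *Rps26*, a ribosomal protein gene 4.10 kb from *Ikzf4*, was at 1058, 1134, 1111 and 821, and *Suox* on the other side was at 13.3, 14.8, 14.1 and 15.9. *Acadsb*, whose annotated start is 0.08 kb from that of *Ikzf5* on the opposite strand, was at 9.36, 7.24, 8.55 and 10.4, and *2310057M21Rik* on the other side was at 7.57, 8.35, 7.32 and 9.97.

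The genes whose pattern over the 4 samples was nearest to each member were found among 6213 genes whose FPKM was 10 or more in every sample, by the root mean square difference of centred log2 values. With 4 samples such a likeness is a description. Nearest to *Ikzf1* were *Bcdin3d* (root mean square difference 0.005), *Abtb2* and *Uckl1*, and nearest to *Ikzf2* were *Smg1* (0.021), *Cdk17* and *Ccnt1*. Nearest to *Ikzf3* were *4833420G17Rik* (0.010), *Cog8* and *Sertad2*, and nearest to *Ikzf5* were *Cbx1* (0.005), *Nudt3* and *Adamts10*. Nearest to *Ikzf4* were *Rrm1* (0.026), a subunit of ribonucleotide reductase, the mitotic kinase gene *Aurka*, and *Id2*, an inhibitor of E proteins. *Rrm1* was at 56.7, 64.3, 62.0 and 26.5, *Aurka* at 24.1, 27.0, 26.0 and 11.0, and *Id2* at 59.0, 68.5, 67.9 and 29.3. Each of these 3, like *Ikzf4*, had its lowest value in Foxa1/2cKO 2, where *Ikzf4* was at 1.91.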

How the data were processed

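CD69+DP thymocytes were sorted from control and Foxa1/2cKO thymus and sequenced, with 2 samples per group. Reads were aligned by the authors against mm10 and its RefSeq annotation, and HTSeq (union mode) gave counts. The values that the authors deposited are FPKM per gene and sample. The step from reads to FPKM is not given in the sources used here. FPKM values rose in whole steps, from which whole reads were recovered for 100% of 16069 genes above 0, as the smallest whole numbers and to within 0.001. True reads could be a whole multiple of these. Of 2187 genes with 1 transcript in GENCODE vM21, which is not the authors' annotation, 24.6% had a recovered length that divides the annotated one. Read counts and Poisson intervals depend on this recovery.

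Groups followed the labels. Genes were tested when their FPKM was 1 or more in 2 or more samples, with limma 3.58.1 in R 4.3.3 on log2(FPKM + 1), with a mean-variance trend and Benjamini-Hochberg adjustment at 0.05. This scale shrinks the fold changes of genes with low values. The script was tested on simulated data. Ratios were compared by an exact permutation test. Poisson intervals cover counting error only. Members and lists were chosen with earlier results of these data known. Besides the members, the text names the genes of each list with an unadjusted p under 0.05 and its 2 genes of highest mean FPKM, the nearest protein-coding neighbours, and the 3 genes nearest in pattern. *Csf1r* (at most 2.47) and *Krt8* (at most 0.296), which this rule also selects, are given only here. Any others are named as chosen after their values were seen, apart from *Foxa1*, *Foxa2*, *Cd4*, *Cd69*, *Cd3e*, *Igll1*, *Ebf1*, *Foxn1* and genes that share sequence with a member, which were named outside this rule. The alternatives were a pseudocount of 0.1, no filter, upper-quartile scaling, scaling to all recovered reads, limma-voom on recovered reads, a replicate block and leaving out each sample. Finger sequences came from GENCODE vM21 on GRCm38. Exon usage was not analysed here. Of the planned markers, 1 of mature SP thymocytes and 1 of erythroid cells are not reported here and were left out of the counts, sums and medians of those lists.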

Additional observations from a re-analysis of the deposited data

How the results depend on the processing

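With all 4 samples, each setting kept every member without an adjusted p under 0.05 (adjusted p of 0.832 to 0.998) and kept its direction. Log2 fold changes ranged from 0.12 to 0.16 for *Ikzf1*, 0.38 to 0.43 for *Ikzf2*, 0.18 to 0.22 for *Ikzf3*, -0.75 to -0.57 for *Ikzf4* and -0.04 to -0.003 for *Ikzf5*. The ratio of *Ikzf2* to *Ikzf1* ranged from 0.26 to 0.27 on the log2 scale. Leaving out each sample gave -0.06 to 0.37 for *Ikzf1*, 0.26 to 0.57 for *Ikzf2*, 0.13 to 0.30 for *Ikzf3*, -1.16 to 0.02 for *Ikzf4*, -0.02 to 0.02 for *Ikzf5* and -0.07 to 0.20 for the log2 ratio of *Ikzf3* to *Ikzf1*. The direction turned without Foxa1/2cKO 2 for *Ikzf1* (-0.061) and *Ikzf4* (0.020) and without Foxa1/2cKO 1 for *Ikzf5* (0.017, against -0.024 without Foxa1/2cKO 2). Where 1 sample of a group is left out, the lone sample of that group is assumed to vary like the other group. Only fold changes are therefore given for these fits. Over all genes, 1 had an adjusted p under 0.05 with upper-quartile scaling and with a replicate block, as in the values above, and 0 did with limma-voom, without the filter, with the pseudocount of 0.1 or with scaling to all recovered reads, with 0 to 2559 on leaving out each sample. At an unadjusted p under 0.05 by limma, 258 genes were higher and 232 lower, against 363 and 439 without the filter, 221 and 318 with scaling to all recovered reads, which moved the median log2 fold change to -0.03, and 165 and 213 with the replicate block. With limma-voom the unadjusted count was 519 and with the pseudocount of 0.1 it was 477. The replicate block left *Ikzf2* at an unadjusted p of 0.0406 and an adjusted p of 0.998 by limma. With 2 pairs, and a correlation of -0.06 between the deviations of same-numbered samples, the numbers were not taken to pair the samples. An exact permutation test of 2 against 2 cannot give a p under 0.33, and the p-values measure the spread between these samples only.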
